A study of Ovis aries with 6 samples.

Results

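Cholesterol synthesis enzymes and the proteins of sterol sensing form a gene module of 26 listed genes, here followed in granulosa cells of sheep (Ovis aries), the somatic cells that line the ovarian follicle and surround the oocyte. The genes were chosen by symbol, and 23 of the 26 were found by name among 28479 named loci of the deposited table. Where several loci bear 1 gene's name, the most highly counted protein-coding one stands for it. All 23 passed the filter on low values (a mean of at least 1 FPKM, read fragments scaled to locus length and library size, over the 6 libraries). ACAT2 and SREBF1 were found only through the NCBI gene number in the locus description and are described apart, and INSIG2 was not analysed here. Total RNA freed of ribosomal RNA was sequenced in 3 libraries from atretic follicles, which are degenerating, and 3 libraries from healthy follicles. The series addresses ferroptosis, in which peroxidised membrane lipids kill the cell, and its design compares the follicle states. The libraries of a group are labelled as independent biological replicates, but the sources used here give no breed, age, follicle size, treatment or number of animals, so p-values measure the spread between these libraries. The groups were read from the initials AGC and HGC in the titles together with the design text.

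Cells make cholesterol from acetyl-CoA through mevalonate, isoprenoid diphosphates, squalene and lanosterol. The transcription factor SREBP2 drives the genes of this route. When membranes hold enough sterol, INSIG proteins keep SREBP2 and its escort SCAP in the endoplasmic reticulum, and when sterol runs low the complex moves to the Golgi, where proteases release the active factor. In granulosa cells cholesterol feeds membrane growth and steroid hormones, and much of it is taken up from lipoproteins. The mevalonate part of the route also supplies coenzyme Q and prenyl groups. The later sterol intermediates include the radical scavenger 7-dehydrocholesterol, which connects the route with ferroptosis.

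Libraries held between 87455037 and 91597388 counts. Healthy replicate 3 stood apart: the SD of the log2 differences over all tested loci was 0.933 to 1.03 between it and each other library, and 0.383 to 0.649 among the other 5. Its summed level of 14 tested granulosa markers was 47950 CPM (counts scaled to the library size after TMM normalisation), against 15181 to 16104 in the other libraries, with INHBA (14810 CPM against 2221 to 3007) and LHCGR (304 CPM against 10.6 to 43.1) among them. Not every marker shared this: in that library GATM was low (4.08 CPM against 24.6 to 30.1), AMH lay within the range of the others (254 CPM against 217 to 273) and AMHR2 close to it (171 CPM against 154 to 166). The aromatase gene CYP19A1 was not analysed here, and FSHR was present in every library (1107 to 1826 CPM). Of 14 listed macrophage markers 11 were tested, and all 11 had negative log2 fold changes (8 at an unadjusted p under 0.05). Of all tested loci 6.41% were lower at that p. Of 9542 protein-coding loci 824 were, and 5765 had negative values. The summed level of the 11 macrophage markers was 353 to 404 CPM in atretic and 417 to 659 CPM in healthy libraries. Most of that sum is CD68 (270 to 335 CPM), whose locus is shared with EIF4A1 and POLR2A. The 9 macrophage markers on loci of their own summed to 77 to 92.4 CPM in atretic libraries, to 307 and 290 CPM in healthy replicates 1 and 2 and to 90.9 CPM in healthy replicate 3, which thus lay at the atretic level. The 7 stromal markers summed to 70.7 to 74 CPM in atretic libraries, to 154 and 153 CPM in healthy replicates 1 and 2 and to 55 CPM in healthy replicate 3. Theca markers summed to 386 to 440 CPM in atretic and 406 to 912 CPM in healthy libraries, of which INSL3, on a locus shared with JAK3, made 259 to 566 CPM, with CYP17A1, which defines theca cells, at or under 0.414 CPM in all 6. No listed endothelial or oocyte marker reached the filter, with the endothelial CDH5 at or under 0.0577 CPM in all 6 libraries, and erythrocyte markers were not analysed here. Among lymphocyte markers NKG7 alone reached it, at 0.303 to 3.96 CPM. The part of these cell mixtures in the results below was not tested, and in bulk RNA fewer cells of a type and less RNA per cell cannot be told apart.

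Of the 18 enzymes found, 11 had positive and 7 had negative log2 fold changes (atretic minus healthy), and of the 5 control and transport genes 4 had positive ones. The largest differences lay at HMGCS1, IDI1, SQLE, CYP51A1, NSDHL and SC5D among the enzymes and at INSIG1 and MYLIP among the control genes, 1.49-fold to 1.80-fold by mean CPM. No member passed the quasi-likelihood test of edgeR after adjustment over 14702 loci, which called 0.0476% of loci higher and 0.0204% lower. At an unadjusted p under 0.05 the same test gave 9 members as higher (6.37% of all loci) and 2 as lower (6.41% of all loci), and DESeq2 called 5 higher (2.53% of loci) and 1 lower (1.75% of loci). Of 9542 protein-coding loci, 370 were higher and 824 lower at that p in edgeR, and DESeq2 called 161 higher and 221 lower. In 11 of the 23 members every atretic library lay above every healthy one, which held for 11.1% of all loci and 8.25% of protein-coding ones. In 2 members, PMVK and HSD17B7, every atretic library lay below, which held for 10.8% of all loci and 14.2% of protein-coding ones. The median log2 fold change was 0.23 over the members, -0.03 over all tested loci and -0.07 over protein-coding loci. Summed over the 23 members, the level was 5985, 5954 and 5985 CPM in atretic replicates 1, 2 and 3, and 4430, 4414 and 4418 CPM in healthy replicates 1, 2 and 3. The groups did not overlap in this sum, to which INSIG1, CYP51A1 and MSMO1 contributed most. The near-equal healthy sums hid departures of healthy replicate 3 from healthy replicates 1 and 2 in both directions. Its enzymes summed to 3068 CPM against 2729 and 2747 CPM, and its control and transport genes to 1350 CPM against 1701 and 1667 CPM. Neither group moved as a whole. Among the enzymes MSMO1 was higher there (944 CPM against 517 and 548) and CYP51A1 lower (304 CPM against 582 and 597). Among the control genes SREBF2 was higher (482 CPM against 258 and 250) and INSIG1 lower (538 CPM against 842 and 823).

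Without healthy replicate 3, edgeR called 10 members higher (10.9% of all loci and 5.88% of protein-coding loci) and 1 lower (7.91% of all loci and 10.9% of protein-coding loci). The 10 were HMGCS1, IDI1, SQLE, CYP51A1, NSDHL, SC5D, SREBF2, INSIG1, STARD4 and MYLIP, and the lower one was HSD17B7. DESeq2 gave 11 and 2 in the same 5 libraries, where it called 14.4% and 10.3% of loci. Voom with sample quality weights gave 10 and 2, beside 13.0% and 10.8% of loci. It keeps all 6 libraries but gave healthy replicate 3 a weight of only 0.0911, against 0.774 to 2.42 for the others. With that library left out, atretic and healthy libraries did not overlap in 14 members on the higher side (24.8% of all loci) and 2 on the lower side (25.1% of all loci). Of 9542 protein-coding loci, 1501 lay higher and 3149 lower in this way. DESeq2 without healthy replicate 3 called 740 of the protein-coding loci higher and 1357 lower, and voom with quality weights 626 and 1419. The median over the members was 0.23 with and without that library.

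**Figure D1:**
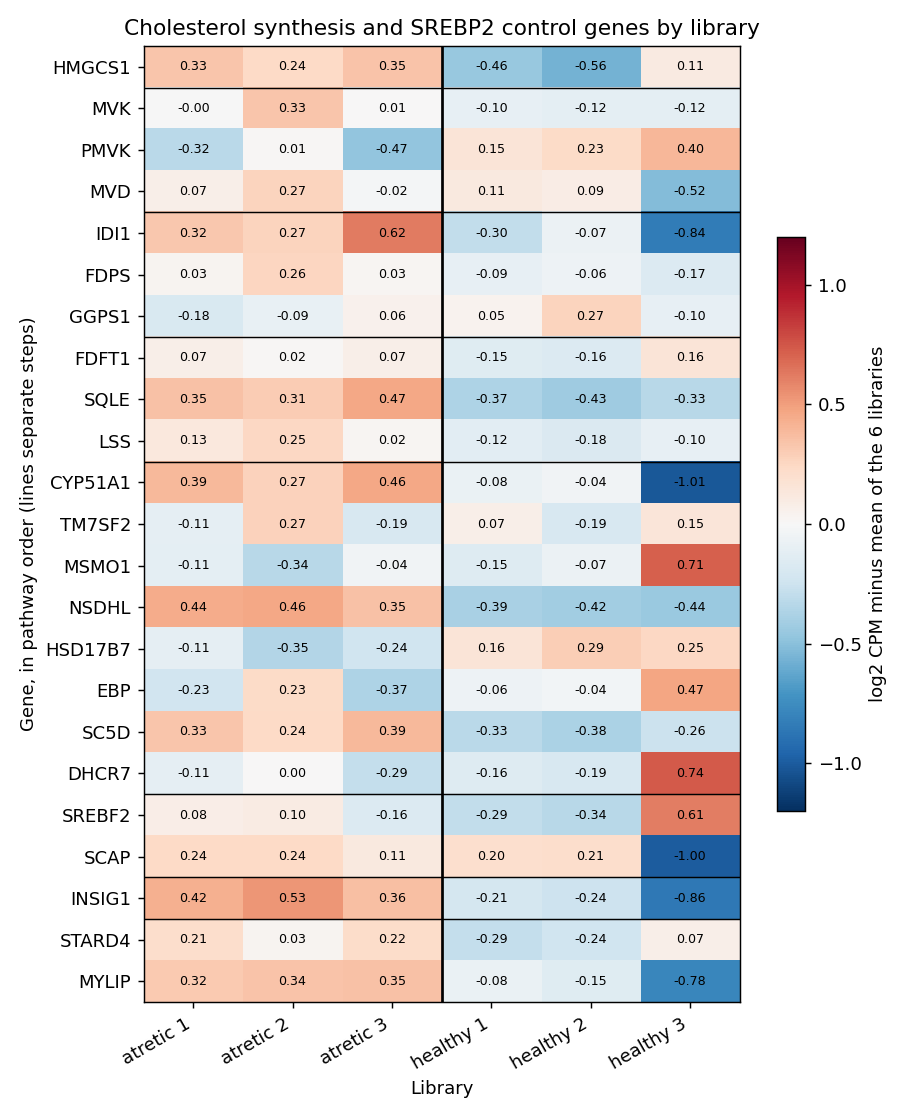
Level of each of the 23 members (rows, in pathway order) in each library (columns), as log2 CPM minus the mean of the 6 libraries, red for higher and blue for lower values. HMGCS1, SQLE, NSDHL and SC5D are red in all 3 atretic libraries, while healthy replicate 3 leaves the other healthy libraries at CYP51A1 (-1.01), MSMO1 (0.71) and DHCR7 (0.74).

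At the entry of the route, HMGCS1, which condenses acetyl-CoA with acetoacetyl-CoA to HMG-CoA, was measured at a locus on chromosome 16 (33125277 to 33153668, MSTRG.10673; the sources used here name no genome build). It had 391, 366 and 395 CPM in atretic replicates 1, 2 and 3 and 226, 210 and 335 CPM in healthy replicates 1, 2 and 3. The groups did not overlap, and healthy replicate 3 lay between them. Its log2 fold change was 0.58 (SE 0.20, edgeR adjusted p = 0.310), and 0.81 without healthy replicate 3 (SE 0.08, edgeR adjusted p = 7.41e-05). ACAT2, the cytosolic thiolase that makes acetoacetyl-CoA, sat on a locus that bears an Ensembl identifier as its name. It had 56.3, 58.9 and 56.3 CPM in atretic and 38, 37.9 and 23 CPM in healthy libraries, so the groups did not overlap there either (log2 fold change 0.79, edgeR adjusted p = 0.220). A locus on the opposite strand that holds TCP1 overlapped it with 2.82 times its counts, and the sources used here do not say whether counting used strand.

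The kinases and the decarboxylase of mevalonate differed from one another in direction. Mevalonate kinase MVK had 30.1, 37.9 and 30.3 CPM in atretic and 28.1, 27.7 and 27.8 CPM in healthy libraries. Its atretic libraries lay just above the healthy ones, with atretic replicate 2 well above the rest. Phosphomevalonate kinase PMVK had 14.1, 17.8 and 12.7 CPM in atretic and 19.6, 20.7 and 23.3 CPM in healthy libraries. It was one of the 2 members with every atretic library below every healthy one (log2 fold change -0.51, SE 0.17, edgeR adjusted p = 0.304). The decarboxylase MVD shares its locus with CYBA, a subunit of the phagocyte NADPH oxidase, so its counts cannot be assigned to MVD alone. That locus had 119 to 146 CPM in atretic libraries, 131 and 129 CPM in healthy replicates 1 and 2, and 84.4 CPM in healthy replicate 3.

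Among the 3 genes of isoprenoid formation, the isomerase IDI1 had the largest log2 fold change. IDI1 had 172, 166 and 212 CPM in atretic and 112, 131 and 76.8 CPM in healthy libraries, without overlap. Its log2 fold change was 0.78 (SE 0.22, edgeR adjusted p = 0.255), and 0.59 without healthy replicate 3 (SE 0.12, edgeR adjusted p = 0.00681). WDR37, on the opposite strand, overlaps the IDI1 locus with 0.873 times its counts. Farnesyl diphosphate synthase FDPS, on a locus shared with RUSC1, had 72.9, 85.5 and 72.8 CPM against 66.9, 68.7 and 63.7 CPM. GGPS1, which makes the geranylgeranyl group used to anchor small GTPases, had 11.6 to 13.7 CPM in atretic and 12.3 to 15.9 CPM in healthy libraries. The groups overlapped for GGPS1, and for FDPS they lay close together without overlap (log2 fold changes -0.15 and 0.21, edgeR adjusted p = 0.761 and 0.487).

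Squalene epoxidase SQLE, which performs the first oxygen-dependent and a rate-limiting step of sterol synthesis, was measured on chromosome 9 (30457240 to 30483620, MSTRG.28152). It had 491, 476 and 531 CPM in atretic and 297, 285 and 306 CPM in healthy libraries. All 3 healthy libraries lay within 1.07-fold of one another, healthy replicate 3 included, and the groups stood well apart. The log2 fold change was 0.75 (SE 0.12, edgeR adjusted p = 0.107), and 0.78 without healthy replicate 3 (SE 0.08, edgeR adjusted p = 9.7e-05). Lanosterol synthase LSS, which cyclises the epoxide, had 136, 148 and 126 CPM against 114, 110 and 116 CPM, a smaller gap without overlap (log2 fold change 0.27, edgeR adjusted p = 0.381). Squalene synthase FDFT1, which commits farnesyl diphosphate to sterols, had 68.6, 66.3 and 68.6 CPM in atretic and 59.2, 58.6 and 73 CPM in healthy libraries. Healthy replicate 3 had the highest FDFT1 value of all libraries, and without it the groups did not overlap (log2 fold change 0.20, edgeR adjusted p = 0.126). The FDFT1 locus overlaps CTSB on the opposite strand, whose counts were 6.86 times larger.

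**Figure D2:**
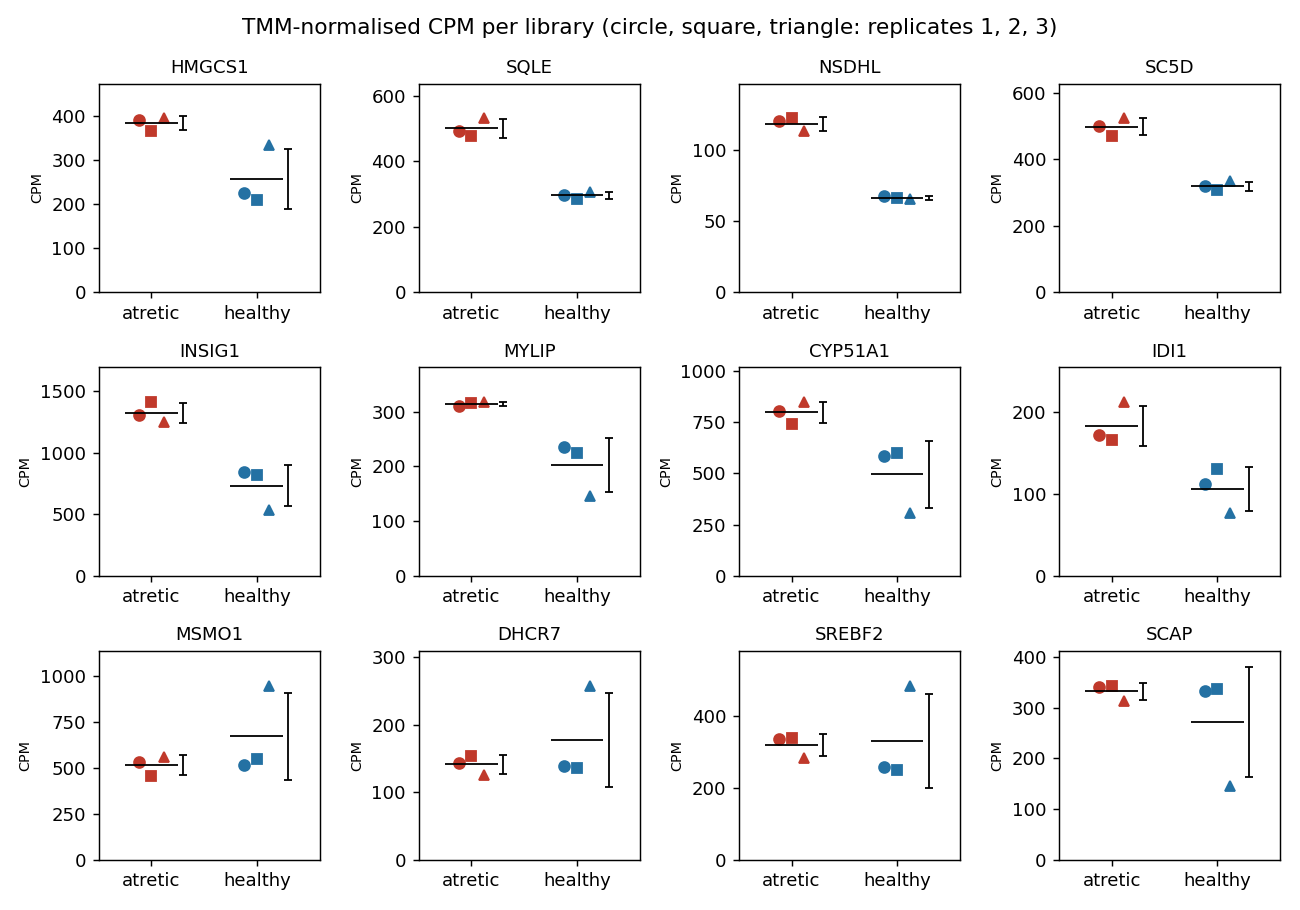
TMM-normalised CPM of 12 members in each library, atretic in red and healthy in blue, with group means as lines and the SD (n = 3) as bars beside them. The upper row and INSIG1, MYLIP, CYP51A1 and IDI1 show no overlap between groups, whereas MSMO1, DHCR7, SREBF2 and SCAP have a healthy replicate 3 far from the other 5 libraries.

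Between lanosterol and cholesterol the 8 enzymes divided into 3 patterns. NSDHL, SC5D and CYP51A1 lay higher in every atretic library, HSD17B7 lay lower in every one, and TM7SF2, MSMO1, EBP and DHCR7 overlapped. NSDHL, the C4 decarboxylating sterol dehydrogenase, was measured on chromosome X (90045877 to 90077884, MSTRG.1431) and had 120, 122 and 113 CPM against 67.3, 66 and 65 CPM. It had the smallest adjusted p of the members (log2 fold change 0.84, SE 0.10, edgeR adjusted p = 0.0703), and the healthy libraries lay within 1.04-fold of one another. NSDHL passed when only protein-coding loci were tested (edgeR adjusted p = 0.0386) or when unnamed loci were kept (edgeR adjusted p = 0.0491). SC5D, the desaturase that gives 7-dehydrocholesterol, had 501, 471 and 523 CPM against 318, 306 and 334 CPM (chromosome 15, 34711345 to 34732715, MSTRG.9833). The groups stood apart with all healthy libraries close together (log2 fold change 0.64, SE 0.12, edgeR adjusted p = 0.141). CYP51A1, the lanosterol demethylase, had 803, 742 and 846 CPM in atretic, 582 and 597 CPM in healthy replicates 1 and 2, and 304 CPM in healthy replicate 3. That last library widened the gap: the log2 fold change was 0.69 (SE 0.27, edgeR adjusted p = 0.358) with it and 0.43 (SE 0.08, edgeR adjusted p = 0.00373) without it.

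HSD17B7, the 3-keto sterol reductase that works after NSDHL, went the other way. It had 11.8, 9.95 and 10.8 CPM in atretic and 14.2, 15.6 and 15.1 CPM in healthy libraries, without overlap (log2 fold change -0.47, SE 0.14, edgeR adjusted p = 0.276). Leaving out healthy replicate 3 kept its log2 fold change at -0.47 (edgeR adjusted p = 0.0442). The methyl oxidase MSMO1, which acts just before NSDHL, had 532, 456 and 559 CPM in atretic, 517 and 548 CPM in healthy replicates 1 and 2, and 944 CPM in healthy replicate 3. DHCR7, which reduces 7-dehydrocholesterol to cholesterol, had 143, 154 and 126 CPM in atretic, 138 and 135 CPM in healthy replicates 1 and 2, and 257 CPM in healthy replicate 3. In both genes the atretic range held healthy replicates 1 and 2, and healthy replicate 3 lay above all other libraries. Without it the log2 fold change was -0.05 (SE 0.09) for MSMO1 and 0.04 (SE 0.10) for DHCR7, against -0.38 (SE 0.26) and -0.33 (SE 0.27) with it. The isomerase EBP had 9.37 to 14.2 CPM in atretic and 11.6 to 16.8 CPM in healthy libraries. The C14 reductase TM7SF2 had 10.3 to 14.2 CPM in atretic and 10.3 to 13 CPM in healthy libraries. Neither of these 2 low genes showed a gap, and their log2 fold changes were -0.25 (SE 0.24) and -0.00 (SE 0.19).

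**Figure D3:**
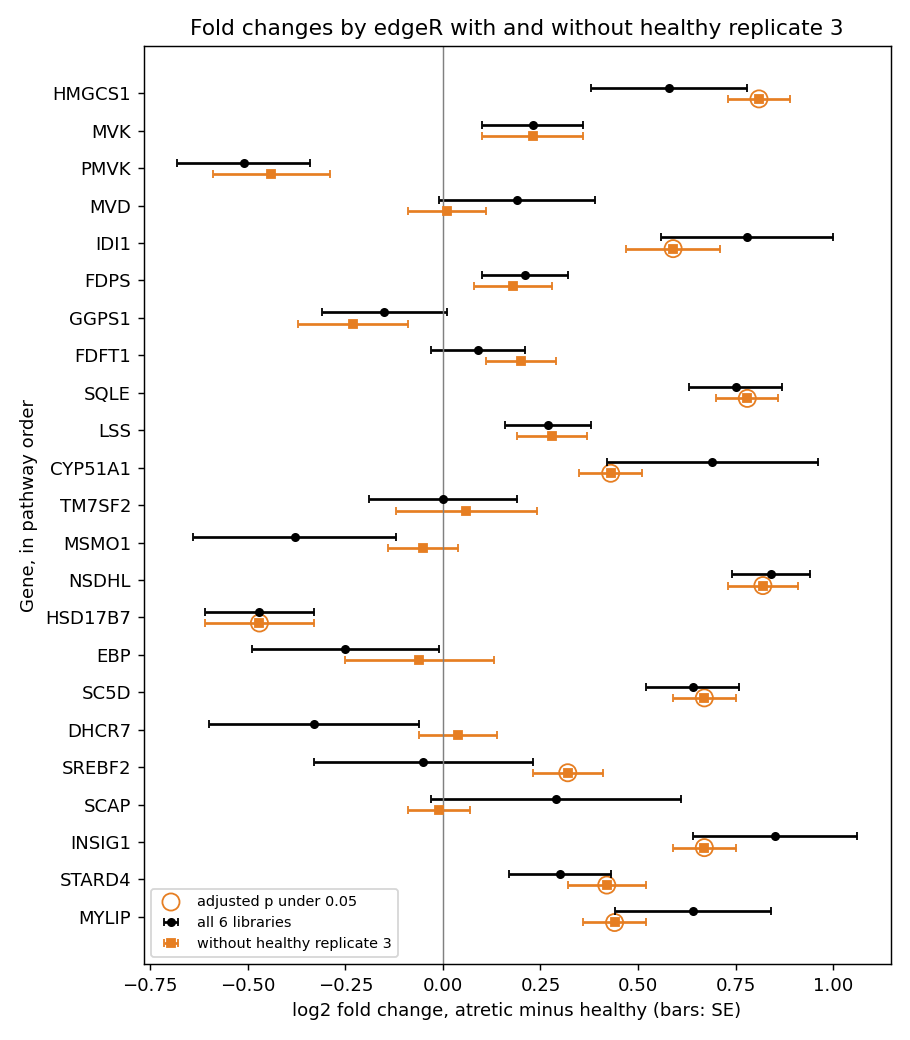
Log2 fold change (atretic minus healthy, x axis) with SE from edgeR for each member, in pathway order, fitted on all 6 libraries (black circles) and without healthy replicate 3 (orange squares, ringed where the adjusted p is under 0.05). SQLE, NSDHL and SC5D barely move between the fits, HMGCS1 goes from 0.58 to 0.81 and SREBF2 from -0.05 to 0.32, and 10 members on the positive side and HSD17B7 on the negative side are ringed.

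Among the control genes, INSIG1, the retention protein and itself a target of SREBP2, had the largest log2 fold change of all members in the 6 libraries. Its locus on chromosome 4 (127265178 to 127284982, MSTRG.23561) carries the gene name without an annotated transcript. INSIG1 had 1309, 1412 and 1249 CPM in atretic and 842, 823 and 538 CPM in healthy libraries. The groups did not overlap and healthy replicate 3 was the lowest library. The log2 fold change was 0.85 (SE 0.21, edgeR adjusted p = 0.217), and 0.67 without healthy replicate 3 (SE 0.08, edgeR adjusted p = 0.000185).

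SREBF2, the gene of SREBP2, had 334, 338 and 282 CPM in atretic, 258 and 250 CPM in healthy replicates 1 and 2, and 482 CPM in healthy replicate 3, the highest value of all libraries. The sign of its difference depended on that library, at -0.05 (SE 0.28, edgeR adjusted p = 0.959) on the log2 scale with it and 0.32 (SE 0.09, edgeR adjusted p = 0.0390) without it. SCAP, the escort of SREBP2, had 342, 343 and 314 CPM in atretic, 333 and 337 CPM in healthy replicates 1 and 2, and 145 CPM in healthy replicate 3. The atretic libraries lay near healthy replicates 1 and 2 for SCAP (log2 fold change -0.01, SE 0.08, without healthy replicate 3). In healthy replicate 3, SCAP was 0.434 times the mean of the other healthy libraries while SREBF2 lay far above theirs. An opposite-strand locus that bears an Ensembl identifier overlaps SREBF2 with 0.387 times its counts. PTPN23, also on the opposite strand, overlaps SCAP with 0.252 times its counts. The gene of SREBP1, SREBF1, which drives mainly fatty acid synthesis, was counted on a locus shared with TOM1L2 at 165 to 194 CPM in atretic and 152 to 180 CPM in healthy libraries, with overlap.

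STARD4, a soluble carrier that moves cholesterol between membranes and is known as an SREBP2 target, had 45.1, 39.7 and 45.2 CPM in atretic and 31.9, 32.9 and 40.7 CPM in healthy libraries. Only healthy replicate 3 reached into the atretic range (log2 fold change 0.30, edgeR adjusted p = 0.420, and 0.42 with edgeR adjusted p = 0.0170 without it). MYLIP, the ubiquitin ligase also called IDOL that degrades the LDL receptor and is induced by the sterol-sensing LXR receptors, had 310, 315 and 317 CPM in atretic and 236, 225 and 145 CPM in healthy libraries. The 3 atretic libraries lay within 1.02-fold of one another and above every healthy library. Its log2 fold change was 0.64 (SE 0.20, edgeR adjusted p = 0.286), and 0.44 without healthy replicate 3 (SE 0.08, edgeR adjusted p = 0.00273).

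Agreement among replicates differed between the members. In 8 members, among them SQLE, NSDHL, SC5D, LSS and HSD17B7, the highest healthy library was less than 1.2 times the lowest. In 8 members healthy replicate 3 was the lowest of all 6 libraries, as for IDI1, CYP51A1, SCAP, INSIG1 and MYLIP, and in 6 it was the highest, as for MSMO1, DHCR7 and SREBF2. Over all tested loci it was the lowest in 33.2% and the highest in 31.8%. The atretic libraries were closer, with 14 members whose highest atretic library was less than 1.2 times the lowest, and atretic replicate 2 was the highest atretic library in 12 members. Without atretic replicate 2 the median over the members was 0.13.

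Per locus length, INSIG1 was the most abundant member with deposited FPKM values of 54.1 ± 4.21 in atretic and 31.5 ± 10.9 in healthy libraries (SD, n = 3). MSMO1 (34.6 FPKM over the 6 libraries), CYP51A1 (20.8), SC5D (15.7) and DHCR7 (15.5) followed. PMVK was the least abundant (1.88 FPKM), next to MVK (2.27) and STARD4 (2.93). Neighbours in this order mostly overlapped in range over the 6 libraries: INSIG1 spanned 18.9 to 58.9 FPKM and MSMO1 27.3 to 47.6 FPKM, while SC5D and DHCR7 spanned 10.9 to 19.9 and 12.4 to 21.8 FPKM. The order was not that of the differences, since MSMO1 and DHCR7, with overlapping groups, stood near the top and NSDHL, with the smallest p, stood at rank 16 of 23.

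**Figure D4:**
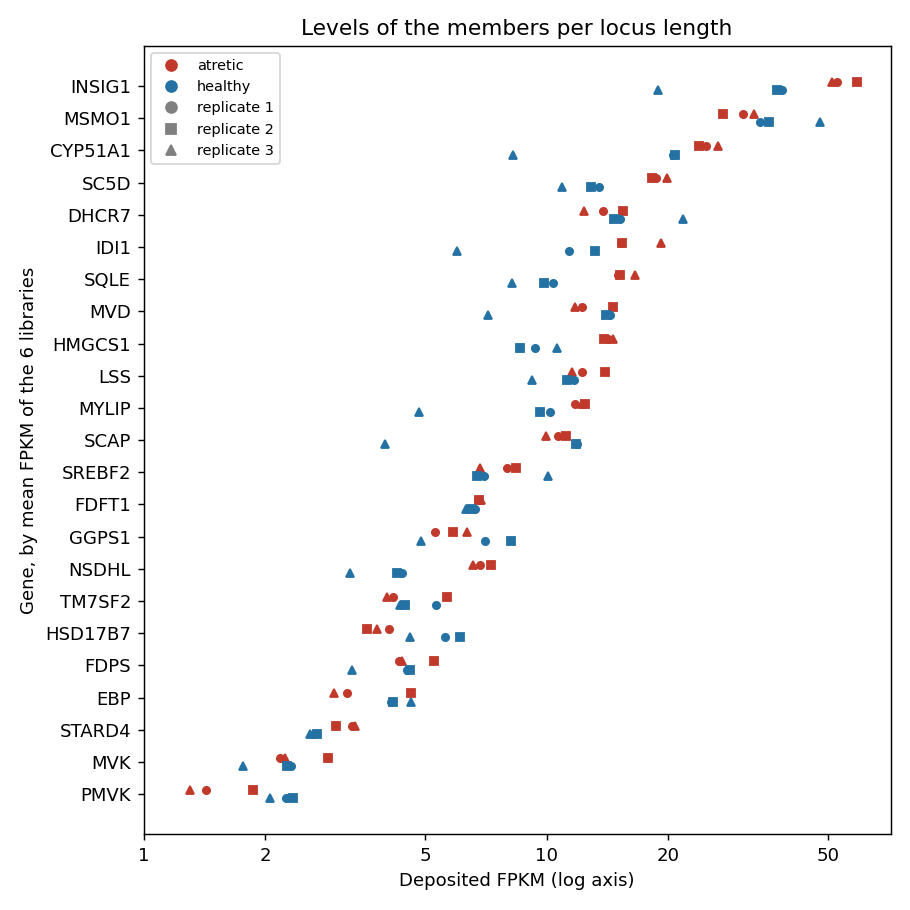
Deposited FPKM of each member in each library on a log axis, ordered by the mean of the 6 libraries, atretic in red and healthy in blue, with marker shapes for replicates. INSIG1 lies highest at 18.9 to 58.9 FPKM and PMVK lowest at 1.30 to 2.35 FPKM.

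The remaining genes of the pathway and its neighbours were described from lists, by the same edgeR fit. Over all tested loci, that fit gave 6.37% higher and 6.41% lower at an unadjusted p under 0.05. DESeq2 called 2.53% higher and 1.75% lower. Of 9542 protein-coding loci, 370 were higher and 824 lower at that p in edgeR, and DESeq2 called 161 higher and 221 lower. These shares stand beside the counts of every list below. In the supply of acetyl-CoA, 6 of 7 listed genes were tested and none passed in edgeR, 3 were higher and 1 lower at an unadjusted p under 0.05, and DESeq2 called 3 higher. The acetyl-CoA synthetase ACSS2 (log2 fold change 0.79), the thiolase ACAT1 (0.62) and the citrate lyase ACLY (0.47) lay above, and the citrate carrier SLC25A1 lay below (-0.43).

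Genes that use the isoprenoids, for prenylation, dolichol and coenzyme Q, lay mostly on the negative side. Of 17 listed, 16 were tested, 15 had negative log2 fold changes, 0 passed, and 3 were lower and 0 higher at an unadjusted p under 0.05. Their median was -0.20, beside -0.07 over all protein-coding loci, of which 5765 of 9542 had negative values. The prenylcysteine methyltransferase ICMT had 20 ± 1.46 CPM in atretic and 26.5 ± 1.15 CPM in healthy libraries (SD, n = 3), and PDSS1 of coenzyme Q synthesis and DHDDS of dolichol synthesis had log2 fold changes of -0.46 and -0.31. Of the 15 genes of SREBP processing and sterol-dependent degradation, 0 passed, and SYVN1 (-0.39) and ERLIN1 (-0.37), both of degradation at the endoplasmic reticulum, were lower at an unadjusted p under 0.05. DESeq2 called 0 genes of these 2 lists in the 6 libraries. Of the isoprenoid users 3 were called lower by voom with quality weights, 3 by edgeR without healthy replicate 3 and 4 by DESeq2 without it, and of the processing and degradation genes 3, 1 and 2 were, with 0 called higher in each. These 3 fits called 10.8%, 7.91% and 10.3% of all loci lower. Of 9542 protein-coding loci they called 1419, 1039 and 1357 lower, and 626, 561 and 740 higher.

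Fatty acid genes known as SREBP1 targets included the only gene of these lists that passed. Of 14 tested out of 16 listed, ACSL3, which activates fatty acids, passed as higher (374 ± 19.6 against 161 ± 3.73 CPM, SD, n = 3, edgeR adjusted p = 0.0438). That call was lost in 5 of 6 edgeR fits that leave out 1 library, all but the one without healthy replicate 3 (adjusted p = 0.24 to 0.466). Almost no locus passed in those 5 fits, which called 0 or 1 loci higher and 0 lower. ACSL3 also failed without the low-value filter (edgeR adjusted p = 0.0682) and with limma on FPKM (adjusted p = 0.0919 and 0.125). With the replicate block (edgeR adjusted p = 0.451) no locus passed. The call held by DESeq2 (adjusted p = 7.38e-24) and by voom with quality weights (adjusted p = 4.32e-05). It also held in edgeR with RLE factors, protein-coding loci alone, unnamed loci kept or summed loci (adjusted p = 0.0222 to 0.0452). The log2 fold change was 0.92 to 1.26 over all settings. ELOVL5 (log2 fold change 0.90), ACSS2 and LPIN1 (1.68) lay above at an unadjusted p under 0.05, and the desaturase SCD, named after its values were seen, lay below (-0.46). The list of other SREBP2 targets held LPIN1 again, with TMEM41B (0.91) above and NPC2 (-0.80) below at an unadjusted p under 0.05, among 9 tested of 13 listed, of which 0 passed in edgeR and DESeq2 called 2 higher. Of 8 tested LXR receptors and targets out of 10 listed, 0 passed in edgeR and DESeq2 called 1 lower. SMPDL3A was lower at an unadjusted p under 0.05 (log2 fold change -1.08), and the efflux pump ABCA1 had 49.8 to 51.8 CPM in atretic, 91.5 and 102 CPM in healthy replicates 1 and 2 and 14.1 CPM in healthy replicate 3. Of 10 tested genes of steroid hormone synthesis out of 14 listed, 9 had negative log2 fold changes, 0 passed in edgeR and DESeq2 called 1 lower. Negative values were held by 7939 of all 14702 loci and by 5765 of 9542 protein-coding loci. The list's median was -0.39 with healthy replicate 3, whose sum over the list was 5248 CPM against 2302 to 2499 CPM in the other libraries, and -0.04 without it, when 3 genes lay higher and 3 lower without overlap. Without that library 24.8% of all loci lay higher and 25.1% lower without overlap, and of 9542 protein-coding loci 1501 lay higher and 3149 lower. HSD17B1, on a locus shared with NAGLU (-0.56), and HSD3B1 (-0.99) were lower at an unadjusted p under 0.05. STAR, which carries cholesterol into mitochondria and shares its locus with LSM1, had 9.58 to 12.9 CPM in atretic, 45.4 and 42.2 CPM in healthy replicates 1 and 2 and 7.77 CPM in healthy replicate 3. ABCA1 is also abundant in macrophages and STAR, itself one of the listed theca markers, in theca cells. The macrophage markers CD163 (11.9 to 14.7 CPM in atretic, 47 and 43.6 CPM in healthy replicates 1 and 2, 10.2 CPM in healthy replicate 3) and CD14 (23.6 to 30.2, 96.6 and 91.3, and 19.7 CPM) had the same order of libraries, as had the theca marker ALDH1A1 (7.22 to 7.89, 19.6 and 21.2, and 3.47 CPM). TYROBP, FCER1G and ITGAM shared that order. In CSF1R (29.9 CPM against 16.8 to 19.4), C1QA, C1QB, C1QC, AIF1 and CD68, healthy replicate 3 instead lay above every atretic library. Of the other theca markers, LHCGR (304 CPM) and INSL3 (566 CPM) were highest in healthy replicate 3. PTCH1 was lower in healthy replicates 1 and 2 (65.3 and 60.8 CPM) than in atretic libraries (68 to 71.2 CPM). The part of macrophages and theca cells in the values of ABCA1 and STAR was not tested.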

How the data were processed

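RNA of granulosa cells was measured in 3 atretic and 3 healthy libraries. The deposited table gives raw read counts and FPKM for 34119 loci, per the file headers. The FPKM values are counts scaled by the authors to locus length and library size. Tools named per the submitters' processing notes are HISAT2 2.0.4, StringTie 2.1.6, SAMtools, cutadapt 1.9 and FastQC 0.11.9. The sources used here do not give genome build, annotation or strand setting. The 5640 loci without a gene name held 8.88 to 11.48% of counts and entered neither library sizes nor tests.

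Named loci with a mean FPKM of at least 1 were tested, 14702 in all, with edgeR 4.0.16 (TMM, quasi-likelihood, group alone, two-sided, Benjamini-Hochberg at 0.05). CPM is TMM-normalised over named loci, and standard errors come from the F statistic. TMM factors were 0.835 for healthy replicate 3 and 0.987 to 1.09 for the others. DESeq2 1.42.0, limma 3.58.1 (log2 FPKM with pseudocounts of 1 and 0.1, and voom with sample quality weights), RLE factors, other sets of loci, summed loci, a replicate block and leaving out each library were alternatives. The software was R 4.3.3 and Python 3.11.15 with matplotlib 3.10.9 and pandas 2.3.3, and the fit was tested on simulated data.

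Members and gene lists were chosen with earlier results of these data known. All members found are named, and of each other pathway list up to 4 genes with the smallest p, besides SCD. The cell type markers named were not limited in this way. A list of further sterol enzymes is not reported here. Symbols missing from the table were sought through NCBI gene numbers in the RefSeq list of ARS-UI_Ramb_v3.0, used for names only. The smallest count of a member in a library was 747. Counting error was not compared with the spread between libraries, which was small for some members, as for MVK in healthy libraries (27.9 ± 0.189 CPM, SD, n = 3). An exact two-sided permutation test of 3 against 3 libraries cannot give a p below 0.1. DESeq2 without healthy replicate 3 and the overlap counted without it were added after seeing the data.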

Additional observations from a re-analysis of the deposited data

How the results depend on the processing

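Called members numbered 0 higher and 0 lower in the reported fit, and with RLE factors, without the low-value filter, with limma on FPKM at either pseudocount and with summed loci. DESeq2 gave 5 higher and 1 lower, voom with quality weights (0.0911 for healthy replicate 3, 0.774 to 2.42 for the others) 10 and 2, DESeq2 without healthy replicate 3 11 and 2, and protein-coding loci alone and unnamed loci kept 1 higher each, NSDHL. Leaving out 1 library gave 0 to 10 higher and 0 to 1 lower, the upper ends without healthy replicate 3. The median over the members was 0.16 to 0.27 under the other settings, with 0.16 by limma on log2(FPKM + 1), which compresses low genes by construction, and 0.13 to 0.27 on leaving out 1 library. The median of all loci stayed between -0.04 and -0.01 in every edgeR fit. With the replicate block 0 members were called higher and 0 lower, and no locus passed. Same-numbered libraries correlated at -0.137, 0.058 and 0 in their deviations from the group means, and the other pairs at -0.108 to 0.13. Healthy replicate 3 stood far apart and enters the healthy group mean, so these correlations cannot show whether the numbers pair the libraries.

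Signs turned at 5 members. TM7SF2 (-0.00) became 0.00 by DESeq2, RLE and voom, 0.01 without the filter, 0.03 with protein-coding loci, 0.05 without atretic replicate 1, 0.09 without atretic replicate 3, 0.03 without healthy replicate 1, 0.06 without healthy replicate 3 and 0.07 by DESeq2 without it. SREBF2 (-0.05) became 0.30 by voom, 0.02 with the block, 0.03 without atretic replicate 3, 0.32 without healthy replicate 3 and 0.33 by DESeq2 without it. DHCR7 (-0.33) became 0.00 by voom, and 0.04 and 0.05 by edgeR and DESeq2 without healthy replicate 3. MVD (0.19) became -0.01 by voom, and SCAP (0.29) became -0.01 and -0.00 by edgeR and DESeq2 without healthy replicate 3. Over the fits that leave out 1 library, the log2 fold change was -0.16 to 0.09 for TM7SF2, -0.49 to 0.04 for DHCR7, -0.21 to 0.32 for SREBF2 and -0.01 to 0.48 for SCAP. The causes were not tested. Every member had 747 counts or more per library, and the part of counting error in these turns was not estimated.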

Other observations

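Some member genes host further loci without an annotated transcript on the opposite strand, which the description by gene does not use. Of 6 such loci that passed the filter, the one inside FDFT1 on chromosome 2 (113859590 to 113868295, MSTRG.14483) had 7616, 7890 and 7959 counts in atretic and 4463, 4633 and 4700 counts in healthy libraries. After normalisation it had 98.8 ± 1.76 CPM in atretic and 56.3 ± 9.98 CPM in healthy libraries (SD, n = 3), without overlap (log2 fold change 0.81, SE 0.15, edgeR adjusted p = 0.136, and 3.49e-05 without healthy replicate 3). Its log2 fold change was thus larger than the 0.09 of the coding FDFT1 locus it overlaps, and the difference between the loci was not tested.

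The opposite-strand locus MSTRG.22369 inside SREBF2 had 38, 36.2 and 33.4 CPM in atretic, 17.5 and 17.7 CPM in healthy replicates 1 and 2, and 37.9 CPM in healthy replicate 3. The locus MSTRG.17190 inside DHCR7 had 8.17 to 10.3 CPM in atretic, 4.48 and 4.73 CPM in healthy replicates 1 and 2 and 8.53 CPM in healthy replicate 3. Both had log2 fold changes near 1 without healthy replicate 3 (1.03 and 0.99, edgeR adjusted p = 0.000138 and 0.00378). A further opposite-strand locus inside SREBF2, MSTRG.22370, had 12 to 14.1 CPM in atretic libraries. It had 9.1 and 10.8 CPM in healthy replicates 1 and 2 and 20.1 CPM in healthy replicate 3. Its log2 fold change was -0.01 in all 6 libraries and 0.41 without healthy replicate 3 (edgeR adjusted p = 0.0908). The locus MSTRG.13299 inside SCAP had 25 to 29.2 CPM in atretic and 27.9, 27 and 13.1 CPM in healthy libraries, so healthy replicate 3 was low there as in SCAP itself. Reads of overlapping loci cannot be told apart where counting ignores strand.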
